A study of Equus caballus with 4 samples.

Results

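The MX proteins and the guanylate-binding proteins (GBPs) are large, dynamin-like GTPases that cells make in response to interferon. Of the 9 gene symbols looked for (*mx1*, *mx2*, *gbp1* to *gbp6* and *irgm*), 4 had probes on the horse array, *mx1*, *mx2*, *gbp5* and *gbp6*, with 11 probes in all among 13724 gene symbols. The members were chosen by symbol and the rule used no measured value, but the choice was made with earlier results of these data known. No probe carried the symbols *gbp1*, *gbp2*, *gbp3*, *gbp4* or *irgm*, so none was analysed under its own symbol, although 3 of the *gbp5* probes were described in the files as guanylate binding protein 2.

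The cells were equine satellite cells, the stem cells of skeletal muscle, from *m. semitendinosus* of stallions aged 6 months, on day 3 of differentiation. The HMB group received 50 μM β-hydroxy-β-methylbutyrate (HMB), which the body makes from leucine, over 24 h and 3 mM hydrogen peroxide (H2O2) for the last 1 h, and the control group received the same H2O2 without HMB, so no comparison with cells free of H2O2 is possible. cRNA of HMB cells was labelled with Cy5 and cRNA of control cells with Cy3, and both were hybridised together on each of 4 arrays, labelled as 4 biological replicates. The dyes were not swapped, so a dye effect and the effect of HMB cannot be told apart, and the labels number the control as replicate 1 on all 4 arrays, while the study's methods count 4 control samples, so whether these were separate cultures is not settled. The study kept the culture with the best viability and fusion, so the replicates need not be different horses.

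Type I interferons (such as interferon beta), type III interferons and interferon gamma bind different receptors, which signal through JAK kinases to transcription factors that enter the nucleus. MX genes respond chiefly to type I and type III interferons, and many GBP genes respond to interferon gamma as well as to type I interferon. MX1 blocks influenza and other RNA viruses and MX2 acts against retroviruses and herpesviruses, whereas GBPs assemble on pathogens and on the vacuoles that hold them.

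The array reads each gene through probes of 60 bases, and the probes below show which transcripts the 4 symbols stand for. Coordinates are those of the files, on EquCab1, and the files do not name exons or UTRs. The *mx2* probes lay on chromosome 26 (minus strand) at chr26:4825576-4825635 and chr26:4825513-4825572. Capitals mark a stop codon that closed the reading frame starting at the first base of the probe, which places the second probe at the end of the coding sequence if this frame is the one used.
A_69_P016837: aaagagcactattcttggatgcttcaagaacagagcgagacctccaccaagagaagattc
A_69_P016836: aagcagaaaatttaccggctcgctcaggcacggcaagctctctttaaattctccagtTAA

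The 5 *gbp5* probes belonged to 2 different transcripts on chromosome 5 (plus strand). One pair, at chr5:48092670-48092729 and chr5:48092730-48092789, was described in the files as guanylate binding protein 5. The other 3 probes carried the symbol *gbp5* but were described as guanylate binding protein 2, and the RefSeq gene table (assembly TB-T2T) lists GBP2 as a synonym of GBP5. Of these, A_69_P129492 and A_69_P077202 had identical sequences and spanned chr5:48149269-48150425, with 1097 genomic bases between the 2 parts of the probe. They are repeat measurements of 1 sequence. A_69_P077201 lay at chr5:48150432-48150491 and ended in a stop codon (capitals). Only the first 30 bases are shown for the pair described as GBP5.
A_69_P129492: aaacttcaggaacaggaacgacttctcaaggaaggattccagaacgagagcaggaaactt
A_69_P077201: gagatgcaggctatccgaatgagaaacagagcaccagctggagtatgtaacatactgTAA
A_69_P077197: accagacaatgacacatgtatcttactcta
A_69_P077196: gttcactttcactgaagacaaaggaacaag

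The *gbp6* probes were adjacent, at chr5:47983098-47983157 and chr5:47983158-47983217 (plus strand), and their first reading frame held no stop codon. The *mx1* probes, at chr26:4781674-4781733 and chr26:4781634-4781693 (minus strand), shared 20 bases, shown in capitals at the end of the first, so they are not independent of each other.
A_69_P077187: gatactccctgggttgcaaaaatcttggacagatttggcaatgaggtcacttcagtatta
A_69_P077186: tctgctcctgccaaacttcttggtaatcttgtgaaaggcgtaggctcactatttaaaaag
A_69_P000142: gttttaggcgTGTGAGTGCTGCTTGTGTGA

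Probes of different member genes shared at most 8 consecutive bases, so no long stretch was common to *mx1* and *mx2* or to *gbp5* and *gbp6*. The longest stretch that a member probe shared with a probe of any other gene, on either strand, was 13 to 19 bases.

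All 11 member probes were higher in HMB cells, with mean log2 ratios (Cy5 over Cy3, HMB over control) from 1.07 to 4.79 and a median of 3.80. Each was called by limma, at an adjusted p of 0.05 or less and a fold change of 1.3 or more, as were 12.1% of the 24669 tested probes in this direction and 16.4% in the other. The median of all tested probes was -0.07. Each of the 4 symbols was called through every probe it had.

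Among all called probes, 42.5% were higher in HMB cells, and this split depended on the scaling, the background correction and the test. It was 6.72% when the ratios were centred on the spike-in RNA, which moved the median of all probes to -0.56, 31.1% after a correction for probe GC content, and 54.6% with limma's test against the fold threshold. It was 55.0% with normexp, 60.1% without background correction and 63.2% with median centring. All 11 member probes stayed called higher under each of these.

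MX1, the cytoplasmic antiviral GTPase, rose in both of its probes. For A_69_P000142 the Cy3 signal of control cells was 4278, 4582, 6192 and 6407 on replicates 1 to 4, well above background on every array. The Cy5 signal of HMB cells was 100216, 109241, 147526 and 87170. The HMB signals were all higher than the control signals, and no spot was saturated. The log2 ratios were 4.55, 4.58, 4.57 and 3.77, a mean of 4.37 ± 0.40 (SD, n = 4) and a fold of 20.6 (95% interval 16.1 to 26.5, adjusted p = 6.63e-06). Replicates 1 to 3 lay close together and replicate 4 was lower. The overlapping probe A_69_P000141 gave 4.84, 4.87, 4.96 and 3.99, with a mean of 4.67 ± 0.45 and a fold of 25.4 (19.2 to 33.5, adjusted p = 8.01e-06).

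MX2 rose as well, by different amounts in its 2 probes. For A_69_P016836 the control signals were 57.6, 80.0, 84.5 and 89.0 and the HMB signals were 499, 666, 750 and 447. The groups did not overlap and all spots were well above background. The log2 ratios were 3.11, 3.06, 3.15 and 2.33, with a mean of 2.91 ± 0.39 and a fold of 7.53 (5.90 to 9.62, adjusted p = 3.54e-05). For A_69_P016837, which lies upstream in the transcript, the ratios were 4.17, 4.73, 4.10 and 3.64, with a mean of 4.16 ± 0.45 and a fold of 17.9 (13.6 to 23.5, adjusted p = 1.27e-05). Its control signals were 30.2 to 52.9, and that of replicate 2 was not well above background.

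**Figure D1:**
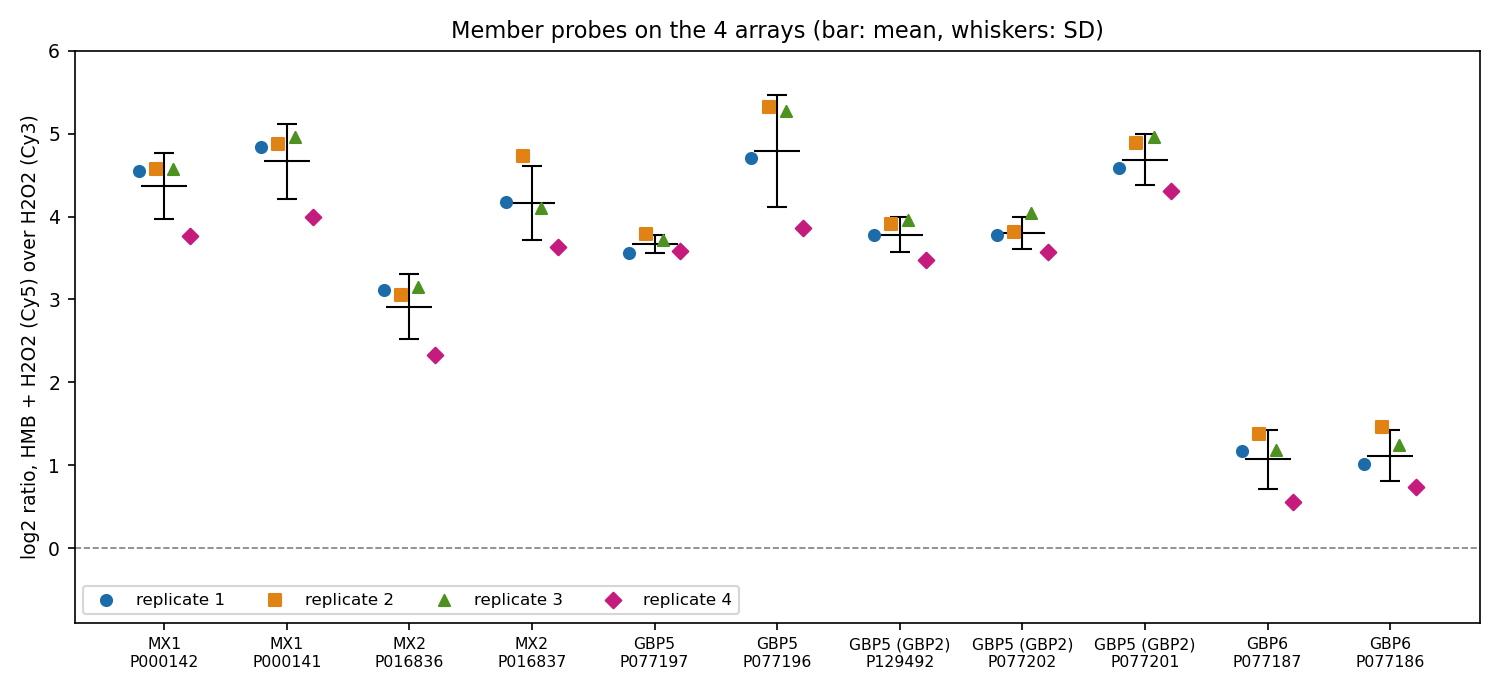
Log2 ratio of HMB + H2O2 (Cy5) over H2O2 (Cy3) for each member probe, with the 4 arrays as points, the mean as a bar and the SD as whiskers. All points lie above 0, *gbp6* lies near 1, the others lie between 2.33 and 5.32, and replicate 4 is lowest for 10 of 11 probes.

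Both transcripts that carry the symbol *gbp5* rose, the one described as guanylate binding protein 2 and the one described as guanylate binding protein 5. The GBP5 protein in other species promotes inflammasome assembly and limits the furin protease, which is not known to hold for the transcript described as guanylate binding protein 2. In the transcript described as guanylate binding protein 2, A_69_P129492 gave control signals of 290.1, 442, 434 and 279.8 and HMB signals of 3994, 6631, 6723 and 3122. All spots were well above background and the groups did not overlap. The log2 ratios were 3.78, 3.91, 3.95 and 3.48, with a mean of 3.78 ± 0.21 and a fold of 13.7 (11.8 to 16.1, adjusted p = 1.97e-06). The probe of the same sequence, A_69_P077202, gave a mean of 3.80 ± 0.19, so this repeat measurement differed by 0.02. The third probe of this transcript, A_69_P077201, gave 4.58, 4.89, 4.97 and 4.30, with a mean of 4.69 ± 0.30 and a fold of 25.7 (21.1 to 31.4, adjusted p = 2.12e-06).

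In the transcript described as guanylate binding protein 5, control signals lay at or near background. A_69_P077197 gave control signals of 46.7, 48.3, 59.1 and 33.0, the last not well above background, and HMB signals of 553, 670, 775 and 396. Its log2 ratios were 3.57, 3.79, 3.71 and 3.58, the tightest of the members, with a mean of 3.66 ± 0.11 and a fold of 12.7 (11.3 to 14.2, adjusted p = 1.19e-06). A_69_P077196 was not well above background in control cells on any of the 4 arrays (5.46 to 8.42), whereas its HMB signals were 171, 218, 235 and 123, all well above. The fit gave a log2 ratio of 4.79 ± 0.68 (adjusted p = 3.54e-05), the highest of the members. With no measured control level this probe allows only a rough bound, 8.66-fold higher in HMB cells. The bound sets HMB cells against the lowest control signal that was well above background on each array, after scaling the arrays to a common intensity. It is not a strict lower limit, since control signals of up to 33.0 among the member probes were also not well above background.

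GBP6 rose least. A_69_P077187 gave control signals of 534, 486, 644 and 622 and HMB signals of 1205, 1262, 1462 and 918. The groups did not overlap and all spots were well above background. The log2 ratios were 1.17, 1.38, 1.18 and 0.56, with a mean of 1.07 ± 0.35 and a fold of 2.10 (1.68 to 2.64, adjusted p = 0.00139). The adjacent probe A_69_P077186 gave 1.02, 1.46, 1.25 and 0.74, with a mean of 1.12 ± 0.31 and a fold of 2.17 (1.77 to 2.65, adjusted p = 0.000768).

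**Figure D2:**
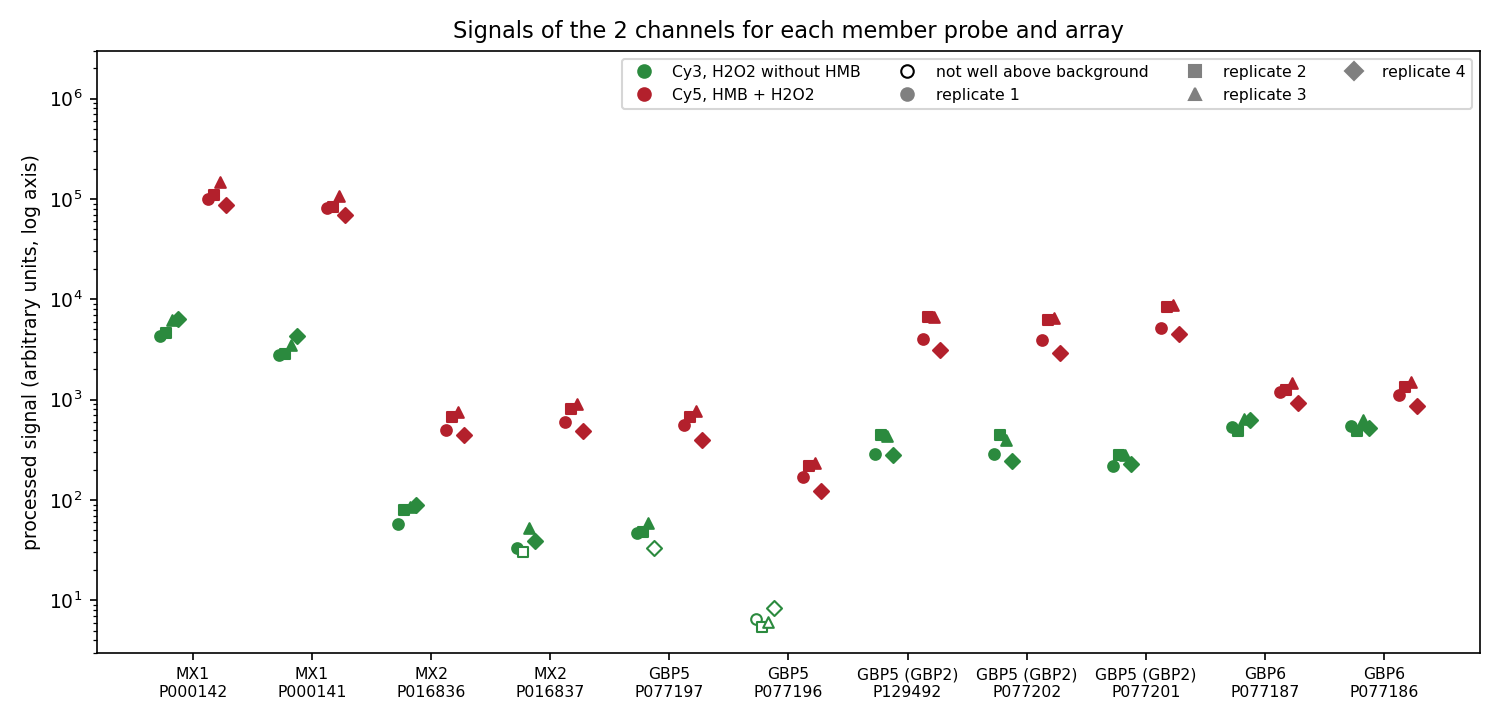
Processed signal of each member probe (log axis, arbitrary units) in control cells (Cy3, green) and HMB cells (Cy5, red) on the 4 arrays, with open symbols where a spot was not well above background. Red lies above green for every probe, control signals of A_69_P077196 lie between 5.46 and 8.42, and the lowest of *mx1* is 2813.

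For the dim probes the size of the ratio rested on how background was removed. With normexp and loess the mean log2 ratio was 1.20 for A_69_P077196, 1.81 for A_69_P077197, 1.78 for A_69_P016836 and 2.29 for A_69_P016837, and for A_69_P077196 this lies under the bound given above. Centring on the spike-in RNA lowered the *gbp6* ratios to 0.59 and 0.63.

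**Figure D3:**
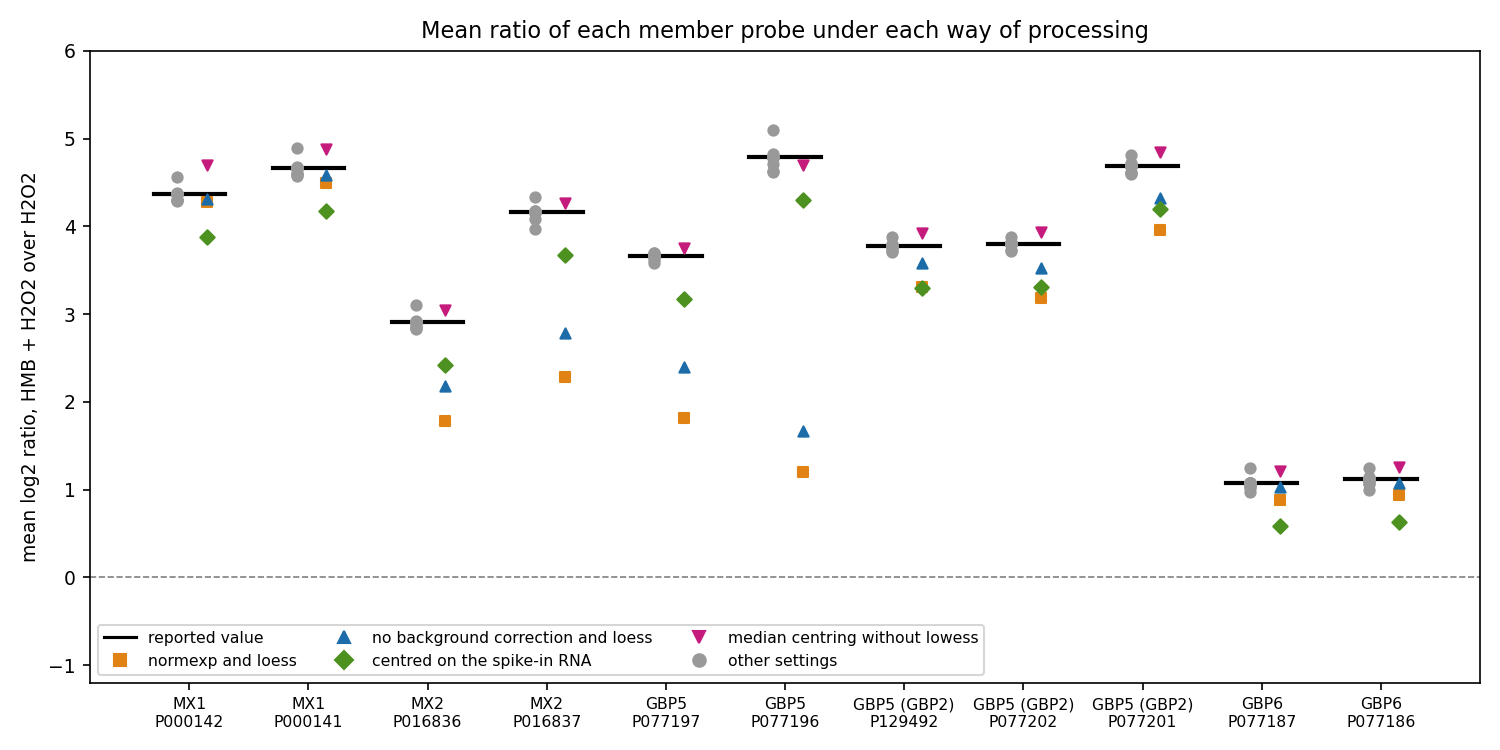
Mean log2 ratio of each member probe as reported (bar) and under each other way of processing (points). Every point lies above 0, the dim *mx2* and *gbp5* probes fall to between 1.20 and 2.29 with normexp and loess, and *gbp6* falls to 0.59 and 0.63 with centring on the spike-in RNA.

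The members were then compared with each other, over 7 pairs of probes, by exact two-sided sign-flip permutation of the 4 array differences, whose smallest possible p is 0.125, so no pair could pass 0.05. The brightest *mx1* probe exceeded the brightest *mx2* probe by 1.44, 1.52, 1.42 and 1.44 on the log2 scale, a mean difference of 1.45 ± 0.04 (exact p = 0.125, adjusted p = 0.146 over the 7 pairs). The brightest *gbp5* probe, A_69_P129492, is one described as guanylate binding protein 2. It exceeded the brightest *gbp6* probe by 2.61, 2.53, 2.77 and 2.92, a mean of 2.71 ± 0.17 with the same p values. The sign was the same on 4 of 4 arrays in both pairs. The size of the *mx1* and *mx2* difference depended on the *mx2* probe used. The dimmer *mx2* probe, A_69_P016837, had a mean of 4.16 against 4.37 for the same *mx1* probe.

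Probes of 1 gene also differed. The *mx2* probes differed by 1.25 ± 0.32 and the *mx1* probes by 0.30 ± 0.06. The probes of the transcript described as guanylate binding protein 2 differed by 0.91 ± 0.11. Each of these had the same sign on 4 of 4 arrays, with an exact permutation p of 0.125. For the pair described as guanylate binding protein 5 the size and direction of the difference were not settled, since A_69_P077196 had no measured control level: it was 1.13 as reported, -0.62 with normexp and -0.72 without background correction. The *gbp6* probes differed by 0.04 ± 0.14 (exact permutation p = 0.625).

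Replicate 4 gave the lowest ratio for 10 of 11 member probes. In the HMB channel replicate 4 had the lowest signal for 11 of 11, whereas in the control channel it was lowest for 3. Across all probes called higher with a mean log2 ratio of 2 or more (n = 456), replicate 4 was lowest for 65.4%, with a median of 2.93 against 3.07 to 3.32 on the other arrays. On this array 55.2% of spots were well above background in Cy5, against 57.5% to 61.8% on the others, and the part of this in the result was not tested. Without replicate 4 all 11 probes were still called higher, with means of 4.57 and 4.89 for *mx1* and 3.11 and 4.33 for *mx2*.

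Interferons, receptors and signalling genes were examined next, with the brightest tested probe standing for each gene. Of 26 genes listed, 13 were tested, of which 9 rose, none fell and 4 were not called, with a median log2 ratio of 1.38. Over all 8463 genes tested, 10.0% rose, 17.2% fell and the median was -0.09. The median was 0.60 with normexp, 0.70 without background correction, 0.89 with centring on the spike-in RNA and 0.70 over the 11 genes with both channels above background. Interferon beta (*ifnb1*) was called higher (adjusted p = 0.000924), but it was well above background in control cells on 1 array only, so the size of its ratio was not settled. The mean log2 ratio was 3.42 ± 1.11 as reported, 0.63 with normexp and 0.999 without background correction. The *irf2* probe, counted among the 9, was not well above background in control cells on any array, which allows only a rough bound of 2.63-fold. Probes of *ifng* were not above background in either channel on any array, and those of *ifna1* only in HMB cells on 1 array.

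IRF7, the transcription factor that amplifies type I interferon, rose by 3.45 ± 0.23 (adjusted p = 3.27e-06). The kinase gene *jak1* (0.03 ± 0.14, adjusted p = 0.792) and the receptor gene *ifnar1* (-0.21 ± 0.41, adjusted p = 0.298) did not pass the test. Another *ifnar1* probe was called lower at -0.45, and the named one was called lower without replicate 3 (-0.41, adjusted p = 0.0122) and with centring on the spike-in RNA (-0.70, adjusted p = 0.00857). With centring on the spike-in RNA 7 of the 13 were called higher and 2 lower.

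Of 34 interferon-stimulated genes listed, 24 were tested, of which 22 rose, with a median of 3.097. The gene *ifih1*, which encodes the RNA sensor MDA5, rose by 5.36 ± 0.49 (adjusted p = 6.04e-06). The probe of *rsad2*, which encodes viperin, an antiviral radical SAM enzyme, was not well above background in control cells on any array. Its change is given as a rough bound of 8.995-fold (adjusted p = 5.35e-06), with the same limit as for A_69_P077196. Its mean log2 ratio was 1.34 with normexp and 1.89 without background correction, both under this bound of 3.17 on the log2 scale. The *oasl* probe (0.31 ± 0.23, adjusted p = 0.0400) did not reach the fold threshold, although a dimmer probe of the same gene gave 2.31, and *samhd1* gave -0.14 ± 0.33 (adjusted p = 0.389). With centring on the spike-in RNA 22 were called higher and 1 lower.

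Of 18 genes known to respond to interferon gamma, 12 were tested and 11 rose, with a median of 1.53. The chemokine genes *cxcl10* (6.18 ± 0.37, adjusted p = 1.62e-06) and *cxcl11* (3.35 ± 0.78, adjusted p = 0.000258) had the highest ratios, that of *cxcl11* being 1.57 with normexp and 2.12 without background correction. The class I light chain gene *b2m* rose by 0.72 ± 0.31 (adjusted p = 0.00422), a call that was lost with the methods' t-test (adjusted p = 0.0559), with limma's test against the fold threshold (0.102) and with centring on the spike-in RNA (0.24, adjusted p = 0.170), and *cxcl9* (-0.34 ± 0.38, adjusted p = 0.0996) did not pass the test. With centring on the spike-in RNA 9 were called higher and 1 lower. The genes of these lists and the members come from the same 4 arrays, and a direction shared between them is not independent evidence.

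**Figure D4:**
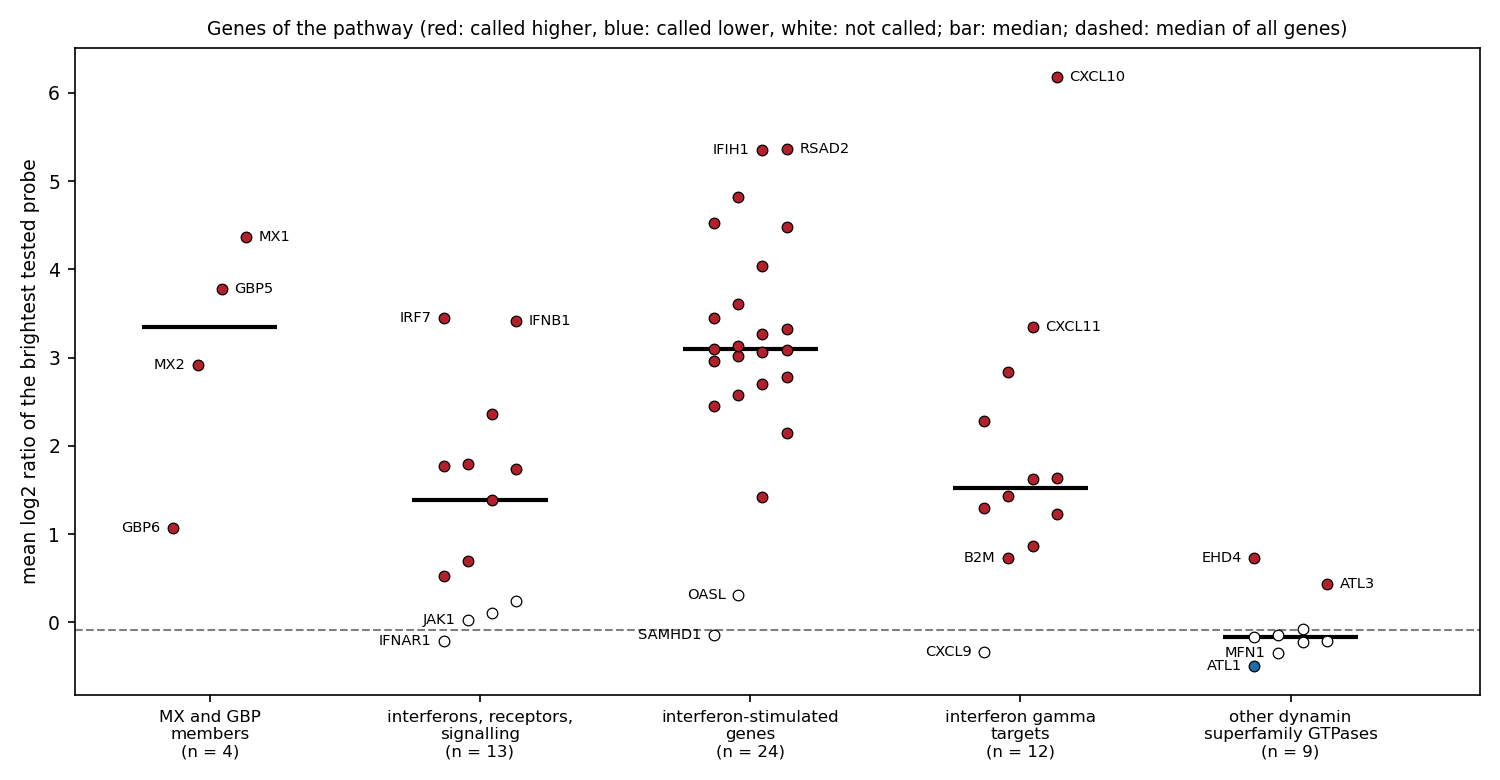
Mean log2 ratio of the brightest tested probe of each gene (points) in the members and the lists, with the median of each list as a bar and the median of all genes, -0.09, as a dashed line. Filled red points were called higher, blue lower and white not called. The fitted values are plotted also for genes whose control level was not measured on all arrays. These are *rsad2* and *irf2* (no array), *ifnb1* (1 array) and *cxcl11*, *bst2* and *adar* (3 arrays). The medians are 1.38, 3.097 and 1.53 for the 3 interferon lists and -0.16 for the other dynamin superfamily GTPases.

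The MX proteins share their fold with other dynamin superfamily GTPases, which remodel membranes and are not known as interferon-induced as a class. Of 14 such genes listed, 9 were tested. The genes *ehd4*, an endocytic recycling ATPase (0.73 ± 0.33, adjusted p = 0.00497), and *atl3*, which fuses membranes of the endoplasmic reticulum (0.43 ± 0.12, adjusted p = 0.00377), rose. Its relative *atl1* fell (-0.49 ± 0.44, adjusted p = 0.0451), and 6 were not called, with a median of -0.16. All 3 tested probes of *atl1* were called lower, from -0.95 to -0.49, and the brightest, given here, fell least. The mitochondrial fusion gene *mfn1* (-0.34 ± 0.06, adjusted p = 0.00523) was under the fold threshold. These calls, each for the brightest probe of a gene, were not stable under other ways of processing. With centring on the spike-in RNA none was called higher and 7 were called lower, *atl1* included, while *ehd4* (0.24) and *atl3* (-0.056) were not called. With normexp (0.20 for *ehd4*, -0.11 for *atl1* and 0.377 for *atl3*) and with limma's test against the fold threshold, no gene was called. The *atl1* call was also lost without replicate 1, 2 or 3 (adjusted p = 0.0937, 0.113 and 0.119). That of *atl3* was also lost without replicate 1 (0.38) and after the correction for probe GC content (0.36), both under the fold threshold. The immunity-related GTPase relatives *irgc* and *irgq* were not tested, since neither was above background in HMB cells on any array.

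The genes whose 4 ratios lay closest to those of a member were found by root mean square difference over the arrays, among 14445 probes with both channels above background. The closest to *gbp5* (A_69_P129492, described as guanylate binding protein 2) was *ddx58*, which encodes the RNA sensor RIG-I (0.0741). The closest to *mx1* (A_69_P000142) was the chemokine gene *ccl2* (0.101), with ratios of 4.39, 4.47, 4.53 and 3.81. The closest to *mx2* (A_69_P016836) was *mb21d1*, which encodes the DNA sensor cGAS (0.148). The closest to *gbp6* (A_69_P077187) were *unc93b1*, which carries nucleic acid-sensing Toll-like receptors to endosomes, and the growth factor gene *fgf2*, both at 0.117, followed by the kinase gene *prkcd* (0.131). The measure rests on 4 arrays and on both size and pattern.

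The members lie in 2 clusters, and the probes around them, within 300 kb on either side, were read as a description, over a window chosen after values were seen. On chromosome 5 the 4 probes of LOC100052081, described in the files as an uncharacterized protein and about 359 to 360 kb from the first *gbp6* probe, were called higher, with mean log2 ratios of 4.59 ± 0.33, 4.79 ± 0.43, 4.89 ± 0.27 and 4.63 ± 0.26 (limma, adjusted p 1.56e-06 to 5.75e-06). By the RefSeq order, 3 genes without a name stand between it and *gbp5*. On the far sides *lrrc8b* (-0.13 ± 0.11, adjusted p = 0.162), *lrrc8c* (-0.32 ± 0.12, adjusted p = 0.0121, under the fold threshold) and the *ccbl2* probes (0.18 ± 0.09 and 0.19 ± 0.12, adjusted p = 0.0632 and 0.0627) were not called, and 1 probe of an unnamed transcript was called lower (-0.67 ± 0.24). On chromosome 26 *mx1* and *mx2* lie between *tmprss2* and *fam3b*, whose probes were too dim to be tested. The nearest tested neighbours, 4 overlapping probes of an unnamed transcript about 170 kb from *mx1*, were called higher with mean log2 ratios of 0.57 to 0.68.

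**Figure D5:**
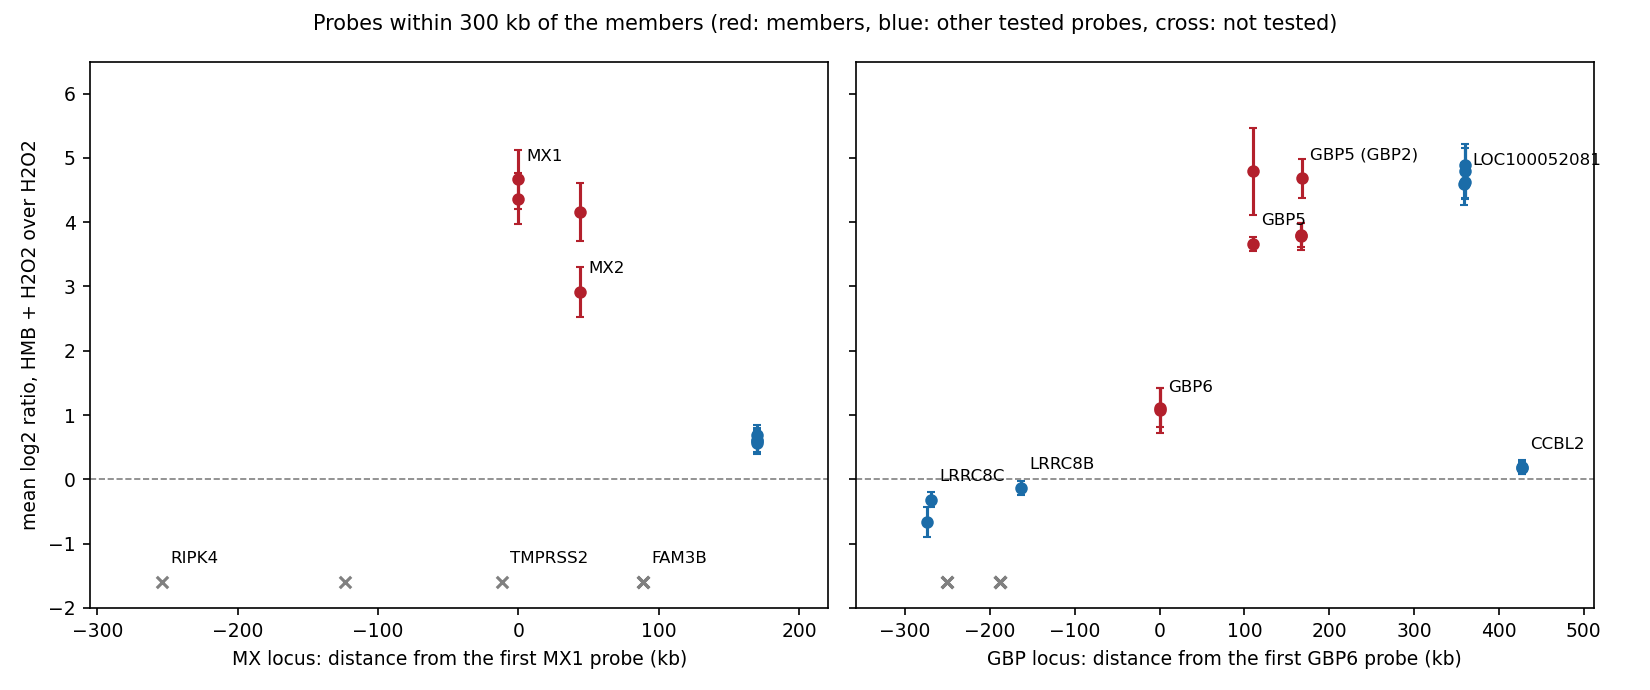
Mean log2 ratio with its SD (4 arrays) of the probes around the members, against distance in kb from the first *gbp6* probe (chromosome 5) and the first *mx1* probe (chromosome 26). Members are red, neighbours blue, and crosses mark probes that were not tested. The neighbour LOC100052081 lies at 4.59 to 4.89, and *lrrc8b*, *lrrc8c* and *ccbl2* lie near 0.

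Marker genes were read as a check of the labelled cell type. Of 11 myogenic markers, 8 had probes, all well above background in control cells and 7 in HMB cells on every array. Their summed signal was 167912 to 189152 in control cells and 64245 to 101814 in HMB cells. The markers did not all move together. Probes of *acta1*, *ckm*, *des*, *myf5*, *myf6* and *myh3* were called lower, while those of *myog* (0.03 and 0.03) and *myod1* (0.32 and -0.11) were not called. In bulk RNA fewer cells of a type and less RNA per cell cannot be told apart. Of 11 leukocyte markers, 8 had probes and 3, *cd14* and *cd68* among them, were well above background in each channel on every array, with a summed signal of 4420 to 5285 in control and 5138 to 7322 in HMB cells. The defining markers *cd3e*, *itgam*, *itgax* and *aif1* were not well above background on any array. None of 5 endothelial markers was above background on every array. Of 6 fibroblast markers 5 had probes, all above background in both channels, with sums of 272757 to 308766 and 302972 to 467320. Every probe of *dcn*, *lum*, *pdgfra* and *thy1* was called higher, with mean log2 ratios from 0.42 to 1.49 where both channels were above background. The *col3a1* probes gave 0.06 to 0.42, and only some of them were called higher. The part of each of these cell types in the rise of the members was not tested.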

How the data were processed

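Labelled cRNA of 4 HMB and control pairs was hybridised to 2-colour horse arrays of 45220 spots. The authors extracted the scans with Agilent Feature Extraction (version 10.10.1.1 per the file headers), which subtracted background and applied linear and lowess normalization. The deposited files hold log10 ratios of Cy5 over Cy3 and signal intensity in each channel, as the authors made them. A signal at background is replaced by a surrogate value. The deposited table of log10 ratios matched the scanner files to within 0.000131 on the log2 scale. The number of arrays, not a count, limits the precision.

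Log10 ratios were converted to log2. Spots flagged for uneven pixels or as outliers among repeats were left out, as were control spots, spots of 1 probe were averaged, and a probe was tested if all its spots in 1 channel or both were well above background on all 4 arrays and it had a ratio on at least 3. This left 24669 probes. limma 3.58.1 in R 4.3.3 (lmFit with an intercept, eBayes) gave p values, adjusted by Benjamini-Hochberg over all tested probes. Named genes were the members, the 2 highest and 2 lowest tested genes of each list (listed at 26, 34, 18 and 14 genes) and the gene nearest to each member. List genes whose control level was not measured on all arrays were also named. Members, lists and tests were chosen with earlier results of these data known. Replicate p values measure the spread between arrays only. Alternatives were the methods' t-test, other background and scaling choices, other filters, and leaving out each array. Scripts were tested on simulated data. One marker gene is not reported here by name.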

Additional observations from a re-analysis of the deposited data

Results flagged for a closer look

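Replicate 4 stood apart in 3 of the 11 member probes: the gap between its log2 ratio and the nearest other array took up a larger part of the whole range than the 95% critical value of Dixon's test for 4 samples. For *mx1* it was 3.77 in A_69_P000142 (gap 0.969 of the range) and 3.99 in A_69_P000141 (0.882), which overlap in sequence. For *mx2* it was 2.33 in A_69_P016836 (0.886). By chance about 1 group in 20 is marked in this way, and the 11 probes are not independent. The cause was not tested.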

How the results depend on the processing

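All 11 member probes stayed called higher in every alternative that could be fitted, 17 for 8 probes and 16 for the 3 with a dim control channel. Several of these alternatives could not change a member ratio. No member spot was marked, the deposited table matched the scanner files, and some alternatives changed only the test or the filter. Only 4 arrays of 1 slide and 1 dye orientation were available, control signals near background limit the ratios of the dim *mx2* and *gbp5* probes, and the cause of the shifts below was not tested. Called probes, 7046 as reported, numbered 2822 with limma's test against the fold threshold (1542 higher, 1280 lower), 3539 with normexp and loess (1945 and 1594), 4440 without background correction (1771 lower) and 18570 with centring on the spike-in RNA (1247 and 17323). Median centring gave 4823 higher. Of the dynamin superfamily genes 3 were called as reported, 1 with the methods' t-test, 0 with limma's test against the fold threshold, 0 with normexp, 1 without background correction, 7 with spike-in centring, 1 with the channels fitted separately without the replicate block that pairs the dyes of an array, and 1 to 2 without 1 array. With spike-in centring the sign turned for *atl3* (-0.056), *oasl* (-0.18) and *jak1* (-0.46). The *jak1* value was also -0.023 after the GC correction and -0.015 to 0.083 without 1 array. The difference within the pair described as guanylate binding protein 5 was -0.62 with normexp and -0.72 without background correction, that within *mx1* 0.21 with normexp and 0.18 with median centring, and that within *mx2* 0.51 with normexp and 0.60 without background correction. The brightest probe of *mx1* exceeded that of *mx2* by 2.50 with normexp, 2.13 without background correction and 1.65 with median centring. That of *gbp5* exceeded that of *gbp6* by 2.42 with normexp. The probes described as guanylate binding protein 2 differed by 0.65 with normexp and 0.74 without background correction, and the *gbp6* probes by -0.0025 to 0.11 without 1 array.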
